A study of Mus musculus with 44 samples.

Results

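RNA recovered with an antibody against AUF1 was compared with RNA recovered with control IgG in C2C12 cells on day 6 of differentiation. The comparison holds 8 of the 44 arrays of the study: the 4 AUF1 pulldown arrays and the 4 IgG pulldown arrays of that day. They were chosen by the names of their signal columns, which give the antibody, the day and an experiment number from 1 to 4, and that number joins each AUF1 array to the IgG array of the same experiment. The question was how large the AUF1 to IgG differences were on day 6, whether the 4 pairs gave the same differences, and which sizes of enrichment lay outside the measured intervals.

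C2C12 is a mouse myoblast line, labelled female, whose cells stop dividing and fuse to multinucleate myotubes in low serum. Per the labels' protocols, cells were grown in DMEM with fetal serum, and differentiation was started in sub-confluent cultures by changing to DMEM with horse serum. Lysates were incubated with protein-A beads carrying an anti-AUF1 antibody (Millipore) or control IgG (Santa Cruz Biotechnology), and the recovered RNA was treated with DNase and proteinase, purified, amplified from an oligo-dT primer and hybridised to Illumina bead arrays. Pulldowns were made on days 0, 2, 4 and 6 (4, 3, 3 and 4 AUF1 arrays, and 4, 3, 4 and 4 IgG arrays). Input without pulldown was measured on 15 arrays of days 0, 3 and 6. The titles of these 15 samples read Input DNA Control, and they are described here as input RNA. All groups are the same unmodified line, and they differ only in day and in antibody or input. The labels give the cell type as myoblast at every time, day 6 included, and nothing in them says that replicates came from separate cultures, so p-values measure the spread between these arrays, which may be technical.

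AUF1, the product of Hnrnpd, recognises AU-rich elements, mostly in the 3' untranslated regions of mRNAs, and is known to change the decay or the translation of the mRNAs it binds. In muscle cells it is known as a regulator of the mRNAs of differentiation factors, and the study's title names MEF2C, a transcription factor of muscle genes. In an RNA immunoprecipitation, mRNAs held by the protein are expected to be higher with the specific antibody than with control IgG. RNA that sticks to the beads or to any antibody is recovered in both.

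The deposited table names each of its 25697 probes by an Illumina identifier alone. None of these identifiers (0 of 25697) occurs in the gene tables at hand, so probes are described by identifier and level, and genes, transcripts and probe sequences are not analysed here. A probe counted as detected on an array where its detection p-value, deposited with the signal, was under 0.05. Levels are log2 values after background correction, addition of an offset of 16 and quantile normalization of all 29 pulldown arrays together, so a difference is relative to the other probes and says nothing about total RNA. The 13812 probes (53.7%) detected on at least 3 pulldown arrays were tested.

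On all 4 day 6 pairs, fewer probes were detected with AUF1 than with IgG, and the signal was lower. In experiment 1, 45.5% of the probes were detected with AUF1 and 45.8% with IgG, and in experiment 4, 44.4% and 45.2%. In experiment 2 the shares were 36.3% and 45.5%. In experiment 3 they were 33.3% and 35.7%, the lowest of the day for each antibody. The mean deposited signal of the AUF1 and the IgG array was 282 and 292 in experiment 1, 131 and 260 in experiment 2, 203 and 208 in experiment 3, and 235 and 281 in experiment 4. The detected share was 39.9% ± 5.99 (SD, n = 4) with AUF1 and 43.05% ± 4.93 (SD, n = 4) with IgG, beside 46.99% ± 1.65 (SD, n = 5) on the day 6 input arrays. The paired difference was -3.19 percentage points ± 4.13 (SD, n = 4 pairs) in detected share and -47.7 ± 57.2 (SD, n = 4 pairs) in signal. Groups overlapped in both measures. The 2-sided exact permutation p over arrays was 0.314 for the share and 0.257 for the signal (0.314 for each after Benjamini-Hochberg adjustment over these 2 tests; the smallest possible p is 0.0286). When the signs of the 4 paired differences were permuted (exact, 2-sided), p was 0.125 for each measure, the smallest value that 4 pairs allow.

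**Figure D1:**
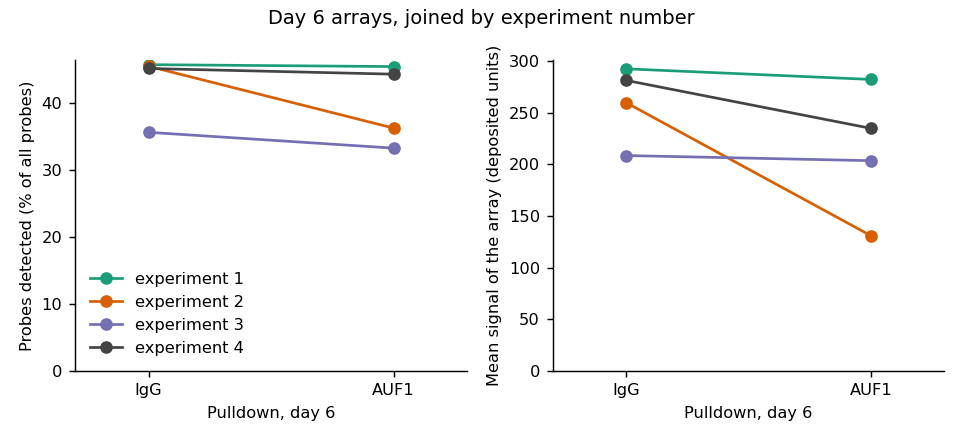
Detected share (percent of all probes) and mean deposited signal of each day 6 pulldown array, by experiment; each line joins the AUF1 array to the IgG array of the same experiment. The AUF1 array is the lower one in all 4 pairs, and experiment 2 has the widest gap (36.3% against 45.5% of probes detected).

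Both arrays of experiment 3 stood apart from those of the other experiments. Across the tested probes, their log2 levels correlated with the arrays of the other experiments at 0.883 to 0.925, while arrays of experiments 1, 2 and 4 correlated with each other at 0.955 to 0.984. Every AUF1 array correlated with its own IgG array at 0.953 or higher (0.986, 0.953, 0.978 and 0.993 in experiments 1 to 4). Of the summed squares of the log2 levels around each probe's mean over the 8 arrays, the experiment number took 78.3%, the antibody 7.15% and the remainder 14.5%. On day 0, with the same number of arrays, the antibody took 19.8%. The arrays of experiments 1, 2, 3 and 4 carry the array numbers 1 to 8, 9 to 16, 17 to 24 and 25 to 32, and within each day 6 pair the IgG array has the number just before the AUF1 array (7 and 8, 15 and 16, 23 and 24, 31 and 32). Antibody and array number therefore cannot be told apart on this day.

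The day 6 label was checked against the input RNA, since muscle markers cannot be looked up by gene. In input, 351 probes rose and 218 fell at least 4-fold from day 0 to day 6 (limma, Benjamini-Hochberg adjusted p under 0.05). The mean level of the risers minus that of the fallers lay between -1.75 and -0.99 on the 8 pulldown arrays of day 0, and between -0.60 and 0.51 on the 8 of day 6. On the pulldown arrays of the days between, it lay between -0.28 and 0.08 (day 2, 6 arrays) and between 0.05 and 0.85 (day 4, 7 arrays). On day 6 it was -0.45, -0.60, 0.51 and 0.42 with AUF1 and -0.27, -0.11, 0.45 and 0.36 with IgG in experiments 1 to 4. Experiments 3 and 4 were above 0 with both antibodies, within the range of day 4. Experiments 1 and 2 were below 0: all 4 of their arrays lay above every day 0 array but below every day 4 array, and both AUF1 arrays also lay below every day 2 array. The measure thus separated day 6 from day 0, and in experiments 1 and 2 it went against the order of the days.

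No probe was called higher or lower with AUF1 on day 6 (0 of 13812; 0% of the tested probes) at a Benjamini-Hochberg adjusted p under 0.05 in limma. The lowest unadjusted p was 0.00109, and every adjusted p was 1.0 after rounding. At an unadjusted p under 0.05 there were 132 probes (0.956%), 23 higher (0.167%) and 109 lower (0.789%) with AUF1. With each AUF1 array paired to the IgG array of its experiment (replicate block), limma again called 0, with a lowest adjusted p of 0.916. The block brought 742 probes (5.37%) under an unadjusted p of 0.05, of which 256 were higher (1.85%) and 486 lower (3.52%). Without experiment 3 the unpaired fit called 0 and had 208 at an unadjusted p under 0.05, and the paired fit called 0 and had 784. With experiments 3 and 4 alone on day 6 these fits called 0, and had 43 and 234. Weighting each array by its estimated quality (limma's array weights, without the block) was the only one of 35 alternatives to call any probe: 60 (0.434%), 2 higher and 58 lower. In that fit the IgG array of experiment 1 had a weight of 13.9 and the other 7 arrays had weights of 0.291 to 1.82.

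The day 6 differences were small beside those of earlier days. The median absolute log2 difference over the tested probes was 0.14 on day 6, while days 0, 2 and 4 had 0.26, 0.39 and 0.34. Between the 5th and the 95th percentile, day 6 differences ran from -0.43 to 0.34. At least 2-fold differences were found for 6 probes higher and 33 lower with AUF1 on day 6 (0.282% of the tested probes), while day 0 had 115 and 389 (3.65%), day 2 had 564 and 1135, and day 4 had 421 and 697. In the same limma fit, days 0, 2 and 4 had 20 (0.145%), 294 (2.13%) and 95 (0.688%) called probes. Brightness differed between the days too. The mean deposited signal was 195 with AUF1 and 278 with IgG on day 0, and 107 and 228 on day 2. It was 127 and 274 on day 4, and 213 and 261 on day 6. The part of this gap in the size of the differences was not tested. Days 0 and 6 had the same number of arrays. The median SD between arrays was 0.36 for AUF1 and 0.34 for IgG on day 6, against 0.37 and 0.39 on day 0, and the median SD of the paired differences was 0.30 and 0.32. The arrays of day 6 were thus spread about as widely as those of day 0, and without experiment 3 the day 6 SDs were 0.25 and 0.21.

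The 4 pairs differed in how far AUF1 and IgG were apart. The median absolute log2 difference was 0.18, 0.36, 0.20 and 0.15 in experiments 1 to 4. Experiment 2, the pair whose AUF1 array was dimmest (signal ratio 0.504 to its IgG array), had 358 probes at least 2-fold higher and 895 at least 2-fold lower with AUF1. Experiment 4 had 5 and 2, experiment 1 had 18 and 133, and experiment 3 had 227 and 213. In experiment 2 the median difference moved with the level of the probes, from -0.06 in the lowest of 4 equal bins of level to 0.12 in the highest, while in the other experiments it stayed between -0.01 and 0.03. The part of array brightness in the differences of experiment 2 was not tested.

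The pairs shared little of their differences. Over the tested probes, the AUF1 minus IgG differences of 2 day 6 pairs correlated at -0.01 to 0.41, with a mean of 0.10 over the 6 combinations. Experiments 1 and 2 gave 0.41, and the other 5 combinations lay between -0.01 and 0.10. On day 0 the 6 combinations ran from 0.33 to 0.72 (mean 0.51), on day 2 the mean of 3 was 0.50 and on day 4 the mean of 3 was 0.59. These correlations are across 13812 probes that share arrays and normalization, and are given as a description. Leaving out experiment 3 raised the day 6 mean to 0.16, and leaving out experiment 2 lowered it to 0.03.

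**Figure D2:**
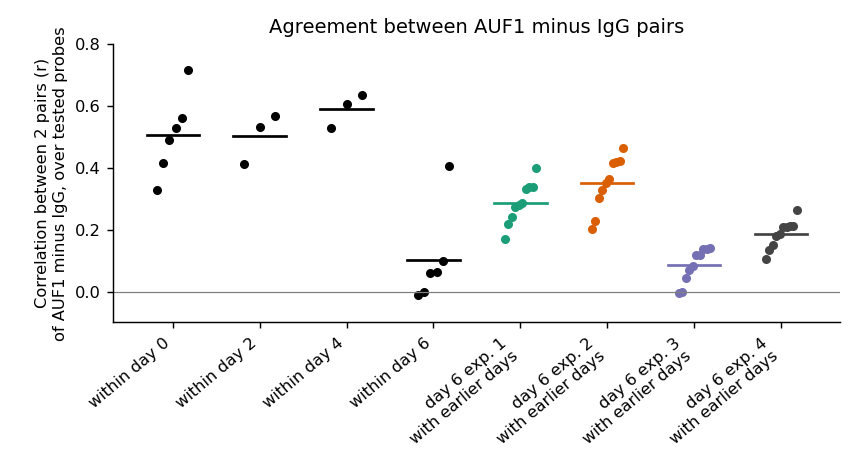
Correlation, across the tested probes, of AUF1 minus IgG log2 differences between single pairs; each point is one combination of pairs, grouped by day. The day 6 combinations lie between -0.01 and 0.41, and those within day 0 lie between 0.33 and 0.72.

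Each day 6 pair was also set against the 10 pairs of days 0, 2 and 4. The mean correlation was 0.29 (0.17 to 0.40) for experiment 1, 0.35 (0.20 to 0.47) for experiment 2, 0.08 (-0.00 to 0.14) for experiment 3 and 0.19 (0.11 to 0.26) for experiment 4. Among themselves, the 10 earlier pairs correlated at 0.29 to 0.72, with a mean of 0.53. Experiments 1 and 2 of day 6 therefore carried differences closer to those of the earlier days than experiments 3 and 4 did, with overlapping ranges for experiments 1, 2 and 4. Experiments 1 and 2 were also the ones below the day 4 arrays in the check against input, and the part of this in the result was not tested.

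Probes with one sign in all 4 pairs were fewer than on day 0, which also had 4 pairs. On day 6, 2308 of the tested probes (16.7%) had the same sign in every pair, 1129 higher and 1179 lower with AUF1. On day 0 there were 5556 (40.2%). Signs drawn at random would match in all 4 pairs with a probability of 0.125. With a difference of at least 1.2-fold in every pair, there were 100 on day 6 (31 higher, 69 lower) and 1860 on day 0. At 1.5-fold in every pair, the counts were 1 and 418. The AUF1 and IgG arrays did not overlap for 174 probes on day 6 (1.26%; 63 with AUF1 above and 111 with IgG above) and for 1109 on day 0 (8.03%).

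Detection, which uses no normalization, was also compared between the antibodies. All 8 arrays detected 7158 of the 25697 probes (27.9%), and none detected 11213 (43.6%). No probe was detected on all 4 AUF1 arrays and on no IgG array. The reverse, all 4 IgG arrays and no AUF1 array, held for 8 probes (0.0311%). More IgG than AUF1 arrays detected 3986 probes (15.5%), and more AUF1 than IgG arrays detected 1551 (6.04%). The surplus came mainly from experiment 2, where 2875 probes were detected with IgG alone and 499 with AUF1 alone. In experiment 4 these counts were 835 and 617, in experiment 1 they were 1065 and 991, and in experiment 3 they were 1190 and 582.

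The 95% intervals give the difference in measured level that the day 6 arrays left possible for a probe. For the 7158 probes detected on all 8 arrays, the interval reached a median of 0.69 log2 units to either side of the estimate (1.61-fold) without the block and 0.42 (1.34-fold) with it. The upper limit of AUF1 over IgG was below 2-fold for 5764 of them (80.5%) without the block and for 7013 (98.0%) with it. It was below 1.5-fold for 31.4% and 67.8%, and below 4-fold for 7135 and 7157. In the other direction, the lower limit stayed above a 2-fold depletion for 80.3% and 94.6%. Each of these limits holds for 1 probe taken alone.

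For limits that hold for all 13812 tested probes together, the level of each interval was raised by dividing 0.05 by 13812. For the probes detected on all 8 arrays, the joint interval reached a median of 1.99 log2 units (3.97-fold) to either side without the block and 1.42 (2.68-fold) with it. The joint upper limit was below 4-fold for 49.5% and 83.8% of them, and below 2-fold for 1.51% and 9.28%. The same size is the difference that a lone probe needs to be called, and 95% of these probes needed at least 1.18 log2 units without the block and 0.99 with it. A lone mRNA enriched 2-fold would therefore seldom have been called with 4 arrays per antibody, while many probes changing together would lower that size. The interval widths equal those of day 0 by construction, since the number of arrays was the same and all groups share the spread of a probe. Their match therefore says nothing about the precision of day 6 itself. On day 0 the fit without the block called 20 probes, all of them lower with AUF1.

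**Figure D3:**
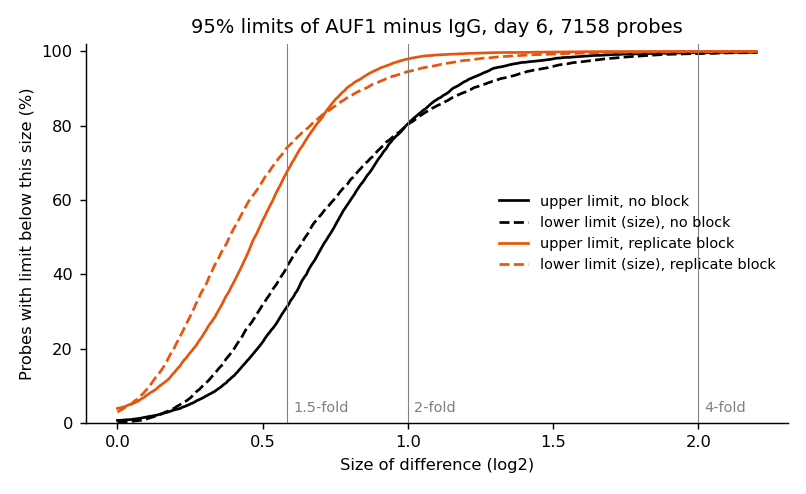
Share of the probes detected on all 8 day 6 arrays whose 95% limit of AUF1 minus IgG lies below each size of difference (log2). Upper limits are solid lines and the sizes of lower limits are dashed, with and without the replicate block, for each probe taken alone. At 2-fold the upper limits give 80.5% without the block and 98.0% with it. Joint intervals are not drawn.

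Precision varied with the level of the probe. The unpaired interval reached a median of 0.46, 0.70, 0.82 and 0.60 log2 units from the lowest to the highest of the 4 bins. The narrow intervals of the lowest bin, with a median level of 4.63, bound the measured difference only. The second bin, with a median level of 5.20, also lay near the lowest level of a detected probe (4.63 to 5.22 over the day 6 arrays). Near background the added offset of 16 compresses differences, so the intervals of such probes do not bound the enrichment of a rare mRNA.

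In the mean over the day 6 pairs, the direction of the earlier differences was still present, at a reduced size. In the mean of days 0, 2 and 4, limma called 3305 probes (23.9%), 1511 higher (10.9%) and 1794 lower (13%) with AUF1. On day 6, 2594 of them (78.5%) had the same sign, beside 65.7% of all tested probes. The 1511 higher probes had a median log2 difference of 0.69 on the earlier days and 0.12 on day 6, and the 1794 lower probes had -0.78 and -0.23. The median of all tested probes on day 6 was 0.01. These probes were chosen by their earlier differences, which are therefore on average too large, while the day 6 arrays took no part in the choice except through the shared spread, normalization and filter.

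The reduction was uneven between experiments. In experiments 1 to 4 the higher probes had day 6 medians of 0.09, 0.22, 0.04 and 0.10, and the lower probes had -0.22, -0.52, -0.05 and -0.08. For both sets of probes the day 6 difference was largest in experiment 2 and smallest in experiment 3. A fit with experiments 3 and 4 alone on day 6 called 2861 probes on the earlier days, and 65.5% of these had the same sign on day 6. The same-sign share of all tested probes was not computed for this fit, so the 65.5% has no base beside it. Probes called on single earlier days were also closer to 0 on day 6. The 20 called lower on day 0 had a median of -1.65 there and -0.49 on day 6, the 214 called lower on day 2 had -1.60 and -0.39, and the 57 called lower on day 4 had -1.36 and -0.36. The 80 called higher on day 2 had 1.22 and 0.13, and the 38 called higher on day 4 had 1.22 and 0.17. The same sign was found on day 6 for 18 of the 20, 204 of the 214 and 48 of the 57 lower probes, and for 65 of the 80 and 35 of the 38 higher ones. Of all tested probes, 51.4% were higher with AUF1 on day 6. No probe of these 5 lists was as far from 0 in its called direction on day 6 as on the day that called it, where it had been chosen for a large value.

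**Figure D4:**
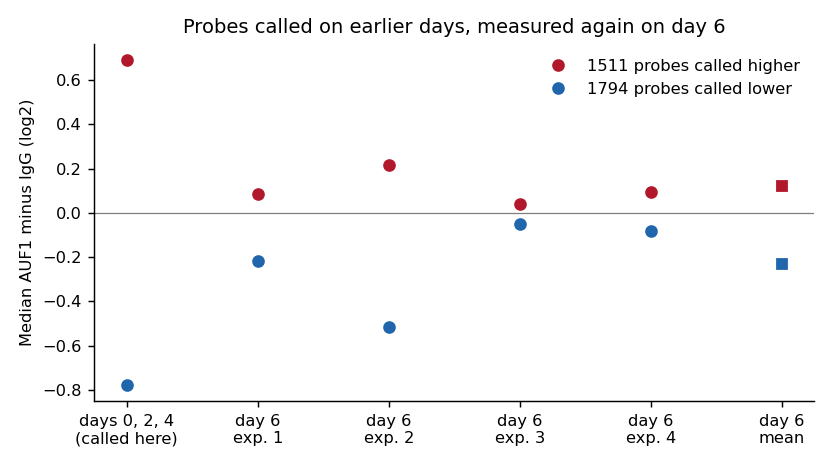
Log2 difference of AUF1 minus IgG for probes called higher or lower in the mean of days 0, 2 and 4, on those days and in each day 6 experiment. The day 6 medians of the lower probes run from -0.52 in experiment 2 to -0.05 in experiment 3, and those of the higher probes from 0.04 to 0.22.

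Whether day 6 differed from the earlier days was tested directly for each probe. Without the block, limma called 0 probes for day 6 against the mean of days 0, 2 and 4 (lowest Benjamini-Hochberg adjusted p 0.316; 867 at an unadjusted p under 0.05), and 0 against day 0, day 2 or day 4 (341, 874 and 659 at an unadjusted p under 0.05). With the replicate block, 390 probes were called against the mean (2.82%) and 36 against day 2 (0.261%), and 0 against day 0 or day 4 (1553 and 2553 at an unadjusted p under 0.05). Of the 390, 170 were lower with AUF1 on the earlier days, with a median of -1.01 there and 0.05 on day 6. The other 220 were higher, with 0.93 and -0.01. On day 6, 386 of the 390 were closer to 0. Day 6 values took part in choosing these probes, so their day 6 medians are on average drawn away from the earlier ones. The probes called in the mean of the earlier days alone had day 6 medians of 0.12 (1511 higher) and -0.23 (1794 lower). The count of 390 depended on which day 6 pairs were kept. Without the day 6 pair of experiment 1, 2, 3 or 4 the paired fit called 6, 20, 0 and 8 probes. With experiments 3 and 4 alone on day 6 it called 37. A block that joins all arrays of an experiment across days gave 7.

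Among single probes, ILMN_2969105 had the lowest p of the day. Its log2 level was 4.50, 4.42, 4.57 and 4.80 with AUF1 and 4.87, 5.35, 5.47 and 5.04 with IgG in experiments 1 to 4. All IgG arrays were above all AUF1 arrays, by a small margin and close to background. The probe was detected on all 4 IgG arrays and on 1 AUF1 array, so the AUF1 level is mostly not measured. The fitted difference was -0.61 ± 0.17 (SE), with a 95% interval of -0.95 to -0.27, and an unadjusted p of 0.00109 (limma). In day 6 input the probe was at 8.37 on the scale of the input arrays, which were normalized separately.

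ILMN_2991166 had the lowest estimate of all tested probes. Its level was 7.50 and 8.24 with IgG in experiments 1 and 2 and 5.03 and 4.87 in experiments 3 and 4, and with AUF1 it was 5.08, 4.24, 4.39 and 4.51. The IgG arrays of the first 2 experiments were high, and the other arrays were near background. The groups overlapped, since the IgG value in experiment 4 lay below the AUF1 value in experiment 1. The probe was detected on 3 IgG arrays and 1 AUF1 array, so the size of the difference is not measured. The fitted value was -1.86 ± 0.64 (SE; limma p 0.00795), and fitted values were -1.88, -2.11 and -1.39 on days 0, 2 and 4. With experiments 3 and 4 alone on day 6 it was -0.48.

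On the higher side, ILMN_1245312 was at 4.84, 5.16, 5.62 and 5.08 with AUF1 and at 4.54, 4.79, 4.62 and 4.59 with IgG. The groups did not overlap. The probe was detected on 4 AUF1 arrays and 1 IgG array, so the IgG level is mostly not measured. The fitted difference was 0.54 ± 0.20 (SE), with a 95% interval of 0.13 to 0.95 (limma p 0.0117). In experiment 2 the deposited signal of this probe was 66.8 with AUF1 and 69.2 with IgG, the reverse of the normalized levels. ILMN_2733524, detected on all 8 arrays, was at 8.83, 9.47, 9.44 and 9.05 with AUF1 and at 8.65, 8.05, 9.33 and 8.56 with IgG. It was higher with AUF1 in every pair, but the groups overlapped and experiment 2 gave most of the difference of 0.55 ± 0.22 (SE). It was 0.041 under median scaling, and the deposited signal in experiment 2 was 378 with AUF1 and 414.8 with IgG. ILMN_3136149 was higher with AUF1 in all pairs, by a mean of 0.60, but it was detected on 2 AUF1 arrays and no IgG array, so no fold is given. ILMN_2964841, detected on 4 IgG arrays and 1 AUF1 array, was lower in all pairs, with a fitted mean of -0.48.

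Among the 8 probes detected on all 4 IgG arrays and on no AUF1 array, the 3 with the largest differences were near background with both antibodies. ILMN_3049559 was at 4.62, 4.37, 4.74 and 4.60 with AUF1 and at 5.34, 5.89, 5.78 and 4.81 with IgG. The groups did not overlap. Because the probe was not detected with AUF1, the size of the difference of -0.88 is not measured. With the lowest level of a detected probe taken for each AUF1 array, the mean with IgG was 1.49-fold higher. That value is a comparison of means and leaves out the spread between arrays. The 95% interval of the fitted difference was -1.74 to -0.01 (unadjusted limma p 0.0476), and the probe was not called. Its differences on days 0, 2 and 4 were -1.63, -2.04 and -1.19. ILMN_2968211, with a day 6 difference of -0.35, was marginally higher with AUF1 in experiment 3 (5.18 against 5.11). ILMN_1240332 was lower with AUF1 in every pair, at 4.47, 4.39, 4.70 and 4.52 against 4.64, 4.65, 5.72 and 4.81, and these ranges overlapped. The same comparison of means gave 1.08-fold for ILMN_2968211 and 1.05-fold for ILMN_1240332. The 95% interval of the fitted difference was -0.84 to 0.14 for ILMN_2968211 (unadjusted limma p 0.157), so no minimum fold is given for it. For ILMN_1240332 the interval was -0.80 to -0.07 (unadjusted limma p 0.0201), and limma called neither probe.

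Of the 13812 tested probes, 43 were called lower and 11 higher with AUF1 on at least 2 of the days 0, 2 and 4. The one with the lowest day 0 p was ILMN_3128792, an abundant probe. Its AUF1 minus IgG difference was -2.74, -2.50 and -2.72 on days 0, 2 and 4 and -0.64 ± 0.39 (SE) on day 6. The day 6 levels were 11.60, 11.40, 10.97 and 12.06 with AUF1 and 12.54, 12.99, 10.82 and 12.25 with IgG. The pairs gave -0.94, -1.59, 0.15 and -0.19, so experiments 1 and 2 showed a difference and experiments 3 and 4 little or none (-0.018 with these 2 alone). For the change from the mean of the earlier days, the Benjamini-Hochberg adjusted p in limma was 0.551 without the block and 0.0242 with it.

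The next probes by day 0 p were also closer to 0 on day 6. ILMN_2416670 went from -2.58 on day 0 to -0.84 on day 6, with pair values of -1.0, -2.20, -0.01 and -0.15. ILMN_1250538 went from -1.96 to -0.82, and here all 4 pairs were lower with AUF1, at -0.78, -1.85, -0.41 and -0.26. Their Benjamini-Hochberg adjusted p for the change, in limma, was 0.688 and 0.765 without the block and 0.0294 and 0.0592 with it.

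Among the 11 probes called higher on at least 2 earlier days, ILMN_2640971 had the lowest day 0 p. It was at 8.33, 8.96, 8.97 and 8.40 with AUF1 and at 8.05, 7.82, 8.68 and 8.34 with IgG. The pairs were all higher with AUF1 by 0.27, 1.14, 0.29 and 0.06, and the groups overlapped. ILMN_1254653 went from 0.81 on day 0 to 0.18 on day 6 and ILMN_3121687 from 1.17 to 0.16. The day 6 sign of these 3 probes turned when arrays were scaled to a common median in place of quantile normalization, to -0.075, -0.34 and -0.32. That scaling moved the median difference of all tested probes to -0.29.

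**Figure D5:**
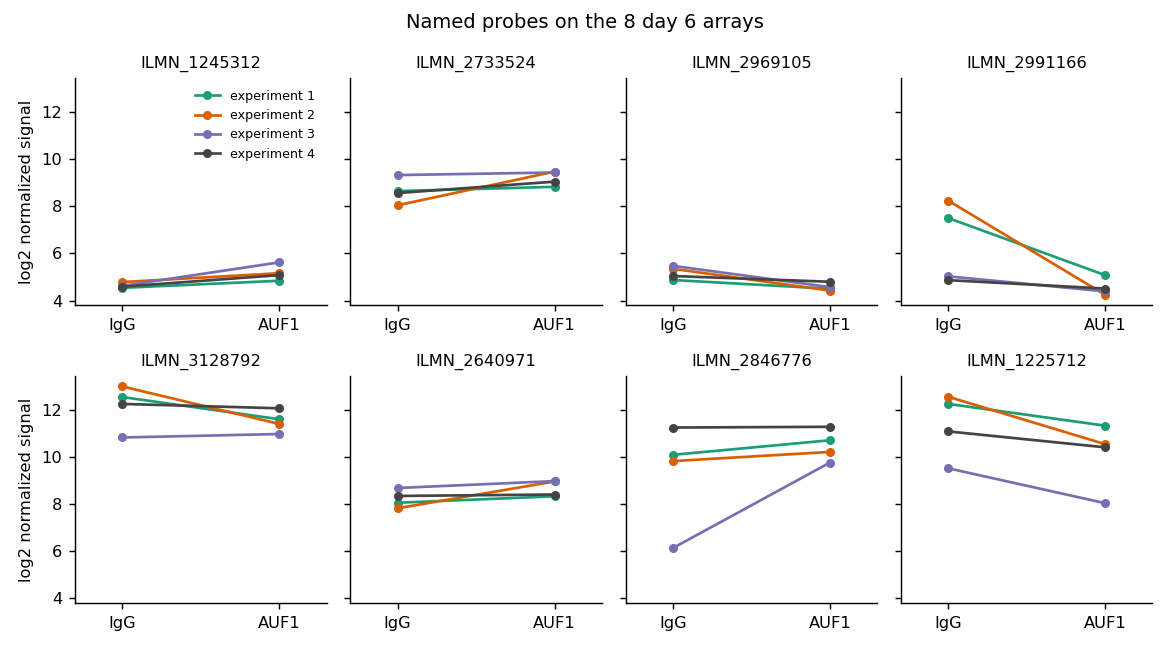
Log2 level of 8 named probes on the 4 AUF1 and the 4 IgG arrays of day 6; lines join the arrays of an experiment. For ILMN_2846776 the IgG array of experiment 3 lies at 6.13 and the other 7 arrays at 9.76 to 11.28.

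The highest estimates among probes detected on all 8 arrays came from a single pair. ILMN_2846776 had the highest of the day, 1.17 ± 0.70 (SE). Its pairs gave 0.62, 0.39, 3.63 and 0.03, and the IgG array of experiment 3 was at 6.13 while the other IgG arrays were at 10.09, 9.82 and 11.25. ILMN_1248028 (2.63 in experiment 3, 0.17 to 0.37 elsewhere) and ILMN_2881322 (3.13 in experiment 3, -0.01 to 0.18 elsewhere) had the same shape. On the AUF1 array of experiment 3 the last 2 were also low, at 8.36 and 8.30, against 10.80 to 11.50 in the other experiments. Without the whole experiment 3 pair their estimates were 0.27 and 0.11.

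On the lower side, ILMN_1225712 was the only tested probe with a difference of at least 1.5-fold in every pair. It was at 11.33, 10.54, 8.03 and 10.41 with AUF1 and at 12.25, 12.55, 9.52 and 11.08 with IgG, and the groups overlapped. Experiment 3 was low with both antibodies. The pairs gave -0.92, -2.01, -1.48 and -0.68. The difference was -1.27 ± 0.68 (SE), with a limma p of 0.0745 without the block and 0.00284 with it (Benjamini-Hochberg adjusted 0.916). ILMN_2972829 (-1.36) and ILMN_2901944 (-1.29) took most of their size from experiment 2, at -3.36 and -2.97.

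The probes with a small unadjusted p were also set against the earlier days. Of the 109 lower at an unadjusted p under 0.05, 108 were lower with AUF1 in the mean of days 0, 2 and 4, and 80 of these were called there. Of the 23 higher, 20 were higher in that mean and 7 were called there. Of all 13812 tested probes, 65.7% had the same sign on day 6 as in that mean, and 2594 were called there with the day 6 sign. The median difference on day 6 was -0.71 for the 109 and 0.51 for the 23, and all 4 pairs had the same sign for 79 of the 109 and for 19 of the 23. These counts describe probes chosen by their day 6 values, which share no array with the earlier days but share the estimate of spread.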

How the data were processed

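The deposited table gives, per the file headers, non-normalized signal intensities for 25697 probes on 44 arrays, each with a detection p-value in the next column. All 44 signal columns were assigned to a group by name. The authors used GenomeStudio 1.6.0, per the submitters' processing notes. No source used here says whether background had been subtracted (the lowest signal was 32.4). No 2 columns were identical (0 pairs). The number of arrays limits the precision.

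For the 29 pulldown arrays, limma 3.58.1 (R 4.3.3) gave log2 levels (neqc: normal-exponential background correction with spreads inferred from detection p-values, offset 16, quantile normalization). Quantile normalization gives all arrays 1 distribution and removes differences in total RNA. The fit had a mean per group and 21 residual degrees of freedom (24.6 after moderation); p-values were adjusted by Benjamini-Hochberg over 13812 probes, with calls under 0.05. The paired alternative has a term for each day and experiment (10 residual, 14.9 after moderation); the IgG array of day 4 without a partner adds nothing to it. Input arrays were processed separately.

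Experiment numbers were taken as pairs by the rule that chose the arrays. The deviations of same-numbered day 6 arrays from their group means correlated at 0.61, 0.16, 0.84 and 0.75, each over 0.1. Arrays of different numbers gave -0.67 to 0.34. Deviations from a group mean cancel out within the group, so a positive value with the same number lowers those with other numbers. For experiment 2 the highest value with another number (0.32) exceeded its own. Column experiment numbers and the replicate numbers of the titles do not always match, so columns were assigned to groups.

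Named probes are up to 3 each way: those with the same sign in every day 6 pair and the lowest p; those detected on all 4 arrays of one antibody and none of the other, by size; those called on at least 2 earlier days, by day 0 p; and those with the highest or lowest day 6 difference among probes detected on all 8 arrays. Gene lists and cell type markers are not analysed here, since probes have no gene names. The comparison, its lists and its tests were chosen with earlier results of these data known. Alternatives covered pairing, scaling, background, offset, filters, moderation, array weights, detected share and leaving out arrays or pairs, experiments 1 and 2 together included.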

Additional observations from a re-analysis of the deposited data

Results flagged for a closer look

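The 4 arrays of each antibody were checked for 1 array far from the other 3 in detected share, mean signal, the riser to faller measure and the levels of the 21 named probes. Of these 48 groups 9 had one. Chance gives about 1 in 20 for groups not chosen by their values, a rate that does not apply to the named probes: 4 of the 9 come from ILMN_1248028 and ILMN_2881322, which were named for a large difference that experiment 3 gave. Of the 9, 8 were arrays of experiment 3. The detected share of its IgG array was 35.7%, against 45.2% to 45.8% on the other 3. With AUF1 in experiment 3, ILMN_2968211 was at 5.18 (others 4.41 to 4.54), ILMN_1248028 at 8.36 (others 10.80 to 10.96) and ILMN_2881322 at 8.30 (others 11.08 to 11.50). With IgG in experiment 3, ILMN_3136149 was at 4.49 (others 4.36 to 4.37), ILMN_1240332 at 5.72 (others 4.64 to 4.81), ILMN_1248028 at 5.72 (others 10.53 to 10.67) and ILMN_2881322 at 5.17 (others 11.03 to 11.34). The exception was ILMN_2972829 with AUF1 in experiment 4, at 6.04 (others 7.30 to 7.41).

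For ILMN_2969105 every day 6 pair was lower with AUF1 (mean -0.61) and every day 2 pair higher (mean 0.02), and for ILMN_1240332 the means were -0.44 and 0.10 in the same way; limma called neither probe for day 6 against day 2. In limma with the replicate block, the AUF1 to IgG difference of day 6 differed from the mean of days 0, 2 and 4 for 390 probes and from day 2 for 36.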

How the results depend on the processing

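No probe was called for day 6 in 34 of 35 alternatives; array weights called 60. The number at an unadjusted p under 0.05 (132) was 742 with the replicate block, 309 with a block across days, 868 with day 6 alone and the block, 312 without arrays under 30% detected, 214 with median scaling, 483 without the detection filter, 49 for probes detected on all 8 arrays, 240 with detected share as a covariate, 1749 with array weights and 953 with array weights and the block; leaving out arrays or pairs gave 17 (without the experiment 2 pair) to 464 (without the experiment 3 IgG array), and with the block and without the pair of experiment 1, 2, 3 or 4 it was 601, 209, 784 and 969. The median absolute difference (0.14) was 0.30 under median scaling. For the change from day 0, day 2, day 4 and their mean, array weights called 4, 187, 38 and 229 probes, and array weights with the block 551, 23, 584 and 1689; the replicate block called 36 against day 2 and 390 against the mean, the block across days 7 against the mean, and mean and SD scaling 2 and 1. Leaving out arrays or pairs gave 0 to 1, 0 to 14, 0 to 4 and 0 to 20. Same-sign probes (2308) numbered 3627 with median scaling, 3952 without the filter and 1258 for probes detected on all 8 arrays; with 3 pairs, 3533 to 4280. The same-sign share of earlier calls (78.5%) was 96.5% with median scaling and 63.4% (without the experiment 3 AUF1 array) to 83.5% when arrays were left out, and with the block 69.9% and 71.6% without the pair of experiment 2 and 4. Median scaling called 6594 probes on the earlier days and moved the median day 6 difference of all tested probes to -0.29. For the alternatives, the same-sign share of all tested probes was not computed, so these shares have no base beside them. Reversed probes were ILMN_2640971 (-0.075), ILMN_1254653 (-0.34) and ILMN_3121687 (-0.32) under median scaling, ILMN_3121687 under mean and SD scaling (-0.090), and ILMN_1248028 (-0.35 to 1.49 over left-out arrays) and ILMN_2881322 (-0.63 to 1.602), lowest without the experiment 3 IgG array. Without the whole experiment 3 pair these last were 0.27 and 0.11; leaving out 1 array of a pair breaks the pair. With experiments 3 and 4 alone on day 6, 43 probes (234 with the block) had an unadjusted p under 0.05, 7100 had the same sign in both pairs, 3801 had an upper limit under 2-fold, 65.5% (64.0% with the block) of earlier calls had the same sign, and the block called 3 against day 0 and 37 against the mean; having fewer arrays widens the intervals. The cause of the other shifts was not tested. The mean pair correlation stayed between 0.03 and 0.16 in 22 alternatives, and the number of probes with an upper limit under 2-fold (5764) otherwise between 4686 and 7806. The 4 arrays per antibody and the low signal over background of rare RNAs limit what could be detected. Fits that join the block with array weights or a left-out pair, those without experiments 1 and 2, and all alternatives for the pair correlation, same-sign counts, upper limits and earlier calls, were added after seeing the data.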
